A study of Mus musculus with 26 samples.

Results

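The genes described here are the homeobox and paired box factors that give cells of the embryonic nervous system their position, namely the *Hox* genes of clusters a to d and the *Dlx*, *Lhx*, *Nkx*, *Emx*, *Otx*, *Irx* and *Pax* families and the sine oculis-related family of *Six2* and *Six3*. Members were all probe sets of the array whose single gene symbol begins with one of these names followed by a number, with the brightest probe set taken for each gene. The rule found 92 genes among the 19938 genes of the array with a symbol of their own, 38 of them from the *Hox* clusters and 54 from the other families. It uses names alone and no measured value. Among the 92 are 4 noncoding transcripts, *Hoxd3os1*, *Dlx1as*, *Irx3os* and *Six3os1*.

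The cells were neurospheres (NSPs), floating aggregates of neural stem and progenitor cells, grown from the ventricular zone of C57BL/6J mouse embryos at embryonic day 14. Their growth medium, per the study's methods, held the growth factor EGF. NSPs were plated on poly-L-ornithine in DMEM with fetal bovine serum, a medium in which they become astrocytes, with or without the inflammatory cytokine TNF at 50 ng/mL. RNA from 9 groups was hybridised to 26 Affymetrix mouse gene arrays. Untreated NSPs were taken at 0, 6, 24, 48 and 72 h with 3 arrays at each time, and TNF-treated NSPs at 6, 24, 48 and 72 h with 3 arrays each, except 2 at 72 h. All groups but the 0 h group differentiated in serum, and the labels describe every group, 0 h included, as astrocytes derived from progenitors. The series calls its replicates biological. All 8 astrocyte markers listed, among them *Gfap* and *Aqp4*, and all 6 progenitor markers had a mean over the 26 arrays above the background limit defined below. The mean of the astrocyte markers rose from 11.09 at 0 h to 12.05 at 72 h in untreated NSPs. NSPs are a mixed culture, so that fewer cells of a type and less RNA per cell cannot be told apart in these values. Comparisons with 0 h also hold the change from growth medium with EGF to serum and the plating. These cannot be told apart from differentiation.

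Homeobox factors bind DNA through the homeodomain and are switched on in bands and stripes that divide the neural tube along its length and from back to belly. *Otx*, *Emx*, *Lhx2* and *Pax6* act in the forebrain, *Dlx* and *Nkx2-1* in its ventral part, *Irx* genes in territories behind the most anterior forebrain, and *Hox* genes in the hindbrain and spinal cord. Progenitors and astrocytes retain parts of this positional code in culture. *Pax6* and *Lhx2* are also needed for progenitors to keep dividing or to choose between neurons and glia.

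The stretches upstream of 4 genes are shown because the results below turn on them. *Lhx2* and *Irx3* fell in untreated NSPs, *Otx2* rose, and *Pax6* was lower with TNF in the mean over 4 times. Each stretch is the 250 bases before the most upstream start in a RefSeq promoter table on GRCm38.p6. For *Lhx2* that start lies a few bases inside the gene as RefSeq bounds it, so that the stretch ends within the gene. *Lhx2* is read from chr2:38339031-38339280 on the plus strand, *Otx2* from chr14:48667645-48667894 on the minus strand, *Irx3* from chr8:91801655-91801904 on the minus strand and *Pax6* from chr2:105668646-105668895 on the plus strand. Capitals mark the letters TAATTA, the core to which many homeodomains bind.
Lhx2: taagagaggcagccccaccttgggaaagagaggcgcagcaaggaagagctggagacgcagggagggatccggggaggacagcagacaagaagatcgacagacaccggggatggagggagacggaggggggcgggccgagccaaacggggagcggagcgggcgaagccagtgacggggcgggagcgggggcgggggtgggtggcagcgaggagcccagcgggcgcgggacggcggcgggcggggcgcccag
Otx2: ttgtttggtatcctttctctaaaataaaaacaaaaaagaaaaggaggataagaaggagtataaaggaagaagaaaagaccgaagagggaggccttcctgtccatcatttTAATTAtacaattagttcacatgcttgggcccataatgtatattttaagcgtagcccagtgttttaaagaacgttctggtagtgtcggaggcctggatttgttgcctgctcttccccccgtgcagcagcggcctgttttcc
Irx3: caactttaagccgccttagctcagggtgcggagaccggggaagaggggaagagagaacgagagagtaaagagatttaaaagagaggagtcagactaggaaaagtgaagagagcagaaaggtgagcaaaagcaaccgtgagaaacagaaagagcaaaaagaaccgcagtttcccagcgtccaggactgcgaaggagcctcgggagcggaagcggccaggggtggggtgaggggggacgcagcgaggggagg
Pax6: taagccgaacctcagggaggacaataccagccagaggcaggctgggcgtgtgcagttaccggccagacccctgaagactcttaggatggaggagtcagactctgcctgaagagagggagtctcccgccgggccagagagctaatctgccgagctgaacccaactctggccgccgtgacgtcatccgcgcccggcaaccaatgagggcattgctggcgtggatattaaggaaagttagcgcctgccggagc
The *Lhx2* stretch holds 25 CG dinucleotides, *Pax6* 15, *Irx3* 13 and *Otx2* 6. The median was 13 over the 62 members with an entry and 6 over all 27025 genes of the table. TAATTA, searched on both strands, stands 141 bases before the start of *Otx2* and is not in the windows of the other 3 genes. It is in 2 of the 62 member windows (3.23%) and in 4.91% of all windows, so members did not hold it more often. The letters TAATCC, the core bound by Otx-type homeodomains and searched likewise, are in 0 of the 62 and in 6.37% of all. A match is a string of letters and not evidence of binding.

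Signal above background was found for few *Hox* genes and for most genes of the other families. Signals are log2 values made by the authors with RMA. The array table gives no detection call, so background was taken from 1035 probe sets of olfactory receptors, genes not used by such cells, and the limit was the 95th percentile of their means, 6.90. Of the 92 genes, 51 had a mean above it, namely 7 of 38 *Hox* genes and 44 of 54 others, and 64.8% of all probe sets of the array did. At the 99th percentile (7.64) 25 genes remained, 3 of them *Hox* genes. Probe sets differ in how brightly they bind, so the limit describes a signal and does not prove expression, and no order of levels between genes is given. *Nkx2-5*, a heart factor, and *Hoxb1*, a hindbrain factor, lie above the limit with means of 8.32 and 7.95, and neither passed a test in any comparison.

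All 9 *Hoxc* and all 10 *Hoxd* genes were at or below the limit. Above it lay *Hoxa4*, *Hoxa6* and *Hoxa7* of the 10 *Hoxa* genes and *Hoxb1*, *Hoxb3*, *Hoxb7* and *Hoxb9* of the 9 *Hoxb* genes. The brightest *Hoxc* gene was *Hoxc9* (6.83) and the brightest *Hoxd* transcript *Hoxd3os1* (6.89). In contrast, *Emx1*, *Emx2*, *Otx1* and *Otx2* all lay above it. So did *Dlx1*, *Dlx1as*, *Dlx2*, *Dlx3*, *Dlx4* and *Dlx6* among 7 *Dlx* transcripts, and *Lhx2*, *Lhx3*, *Lhx4* and *Lhx6* among 8 *Lhx* genes. Of 7 *Irx* transcripts, 6 were above, namely *Irx1*, *Irx2*, *Irx3*, *Irx3os*, *Irx5* and *Irx6*. *Pax1*, *Pax2*, *Pax4*, *Pax6*, *Pax7*, *Pax8* and *Pax9* were above among 9 *Pax* genes, and *Six2*, *Six3*, *Six3os1*, *Six4* and *Six5* among the 6 transcripts of the sine oculis-related family. For *Nkx* genes it was 12 of 13, *Nkx1-1*, *Nkx1-2*, *Nkx2-1*, *Nkx2-3*, *Nkx2-4*, *Nkx2-5*, *Nkx2-6*, *Nkx2-9*, *Nkx3-2*, *Nkx6-1*, *Nkx6-2* and *Nkx6-3*. None of these 12 passed without the replicate block. With it, *Nkx6-3* was lower than at 0 h at 6 h (q = 0.0432), and 6 of the 12 were lower at 72 h, *Nkx1-2*, *Nkx2-4*, *Nkx2-6*, *Nkx2-9*, *Nkx6-2* and *Nkx6-3* (q from 0.0136 to 0.0277). At 24 h the block gave 5 of the 12 lower, *Nkx2-1*, *Nkx2-4*, *Nkx2-6*, *Nkx2-9* and *Nkx6-3* (q from 0.0147 to 0.0490).

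**Figure D1:**
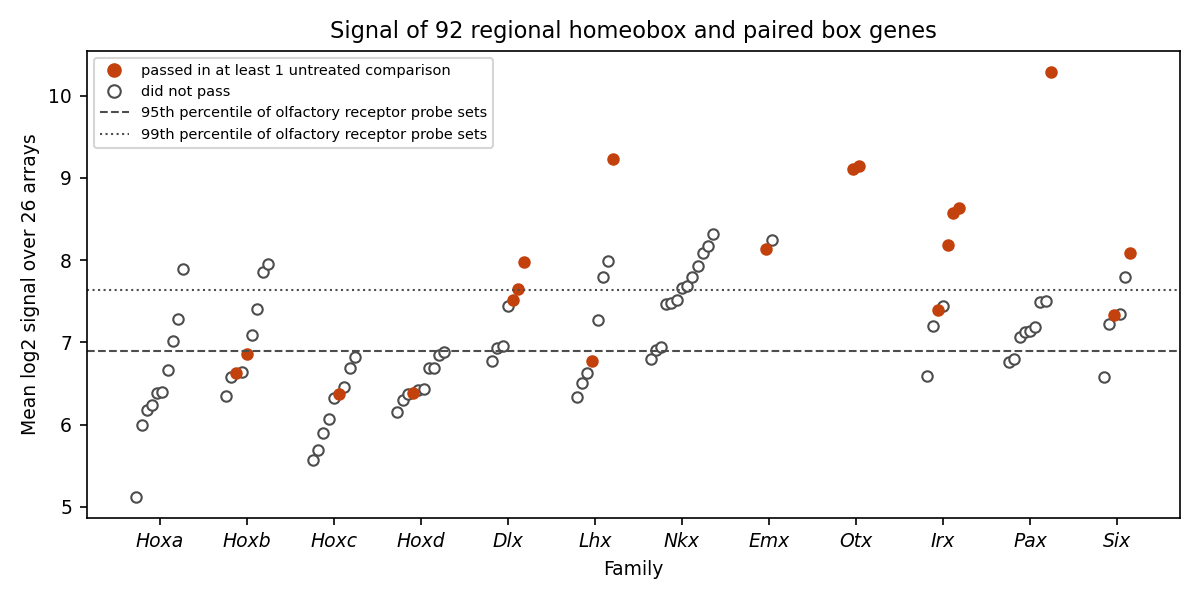
Mean log2 signal over 26 arrays (vertical axis) of each of the 92 genes, by family, with filled points for genes whose q-value was under 0.05 in at least 1 comparison of untreated NSPs with 0 h. The dashed line is the background limit (6.90) and the dotted line the 99th percentile of olfactory receptor probe sets (7.64), and all *Hoxc* and *Hoxd* points lie at or below the dashed line.

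The range over groups was narrow for most members. The means of the 9 groups spanned more than 0.5 on the log2 scale for only 8 of the 92 genes. *Lhx2* had a span of 1.61, *Otx2* of 1.11, *Dlx2* of 1.03, *Irx5* of 0.69, *Hoxc8* of 0.61, *Irx3* of 0.58, *Six5* of 0.54 and *Dlx3* of 0.501.

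Arrays of replicate number 1 stood apart at the start. At 0 and 6 h the dividing-cell markers *Mki67*, *Top2a* and *Cdk1* were far lower on the untreated arrays of number 1 than on the other arrays of their groups, and their mean ran from 7.86 to 12.07 over the 0 h arrays. At 6 h the mean ran from 7.32 to 11.95 over the untreated and as widely, from 7.22 to 11.66, over the TNF-treated arrays. Array 1 of the 0 h group also had the highest median over the 38 *Hox* genes, 6.97 against 6.54 and 6.53 on the other two, and over the olfactory receptor probe sets, 5.66 against 5.29 and 5.29. A raised level of dim probe sets on this array enters each comparison with 0 h. For many of the members named, results are given below with and without all arrays of number 1. Values of partner and other regional genes are from all arrays only.

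The untreated course asks which regional factors moved after NSPs were plated in serum to become astrocytes. *Lhx2* was lower from 24 h on, *Irx3* and *Irx5* fell within the first day and stayed low, *Otx2* rose, and *Dlx2* went up at 6 h and down again. In limma's F test over the 5 untreated times, 8 members changed (8.7% of the 92, while 19.5% of all probe sets did): *Lhx2*, *Dlx2*, *Irx5*, *Otx2*, *Irx3*, *Otx1*, *Six5* and *Dlx1*. All 8 are among the 51 above background, which makes 15.7%, beside 27.5% of all probe sets above background. With the replicate number as a block, 26 members passed (28.3%), beside 34.4% of all probe sets.

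Against 0 h, 3 members were higher and 2 lower at 6 h, where 7.67% of all probe sets passed (4.64% higher, 3.03% lower). The next times gave 2 higher and 8 lower at 24 h (16.5% of all probe sets, 10% higher and 6.51% lower) and 1 higher and 3 lower at 48 h (16%, 8.99% and 6.97%). The last gave 1 higher and 13 lower at 72 h (22.8%, 12.6% and 10.2%). In all, 19 members passed in at least 1 of these comparisons, 14 of them above background. All share the same 0 h arrays. Deviations of same-numbered arrays from their group means correlated with those at 0 h at over 0.1 in every pair at 6, 48 and 72 h. At 24 h the values were 0.0684 to 0.366. With the number as a block the members lower than at 0 h were 6, 15 and 34 at 6, 48 and 72 h. That is 6.52%, 16.3% and 37% of the 92, beside 5.67%, 11.8% and 17.8% of all probe sets. Without the arrays of number 1 the lower members were 1, 4 and 4 (1.09%, 4.35% and 4.35%), beside 0.816%, 5.38% and 6.86% of all probe sets.

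**Figure D2:**
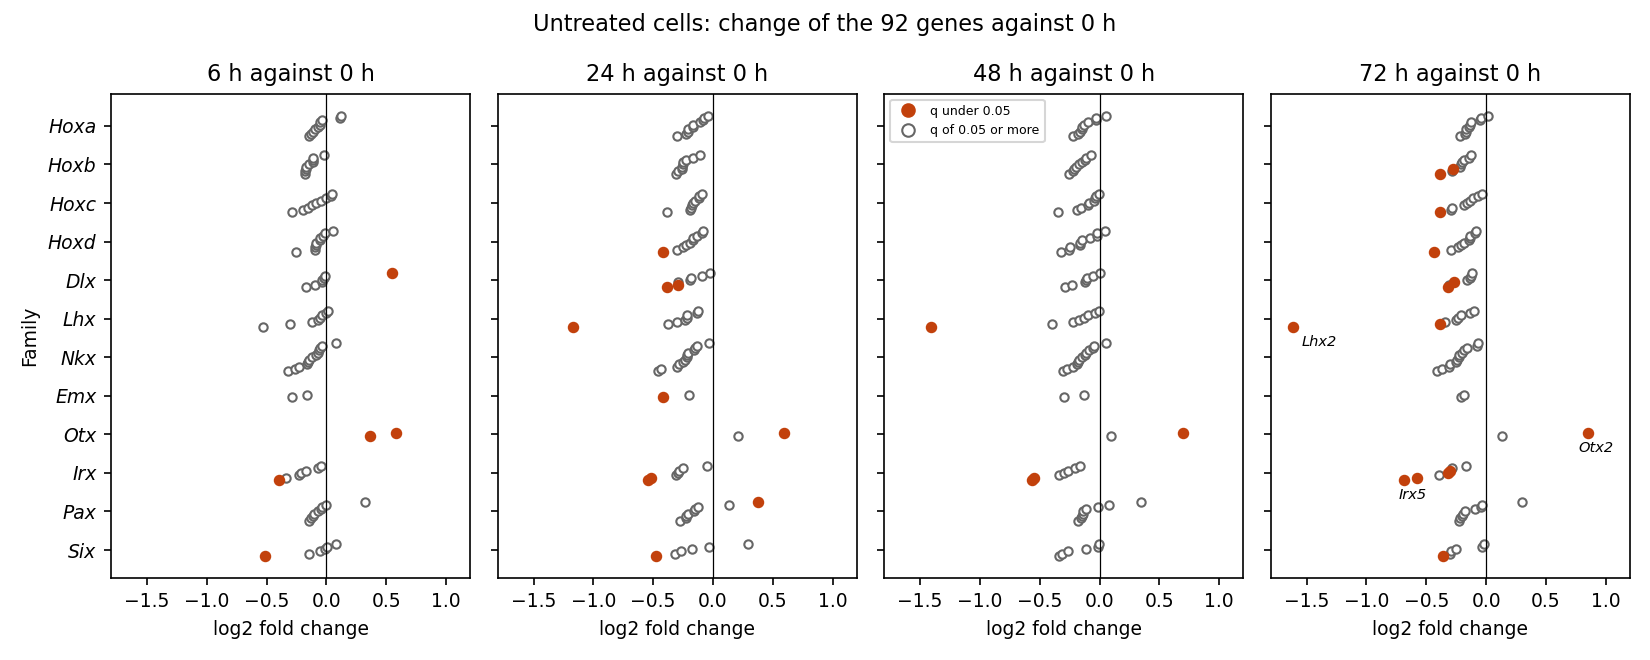
Log2 fold change of untreated NSPs against 0 h (horizontal axis) for the 92 genes, by family, in 1 panel per time, with filled points for q-values under 0.05. Most points lie slightly left of 0, *Lhx2* stands apart on the left from 24 h on (−1.61 at 72 h), and *Otx2* on the right (0.85 at 72 h).

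*Lhx2* is a LIM homeobox factor that marks cortical progenitors and holds back their switch to glia. The gene lies at chr2:38339271-38369737 (GRCm38.p6). Its log2 signal was 10.45, 9.92 and 10.17 on the 3 arrays at 0 h and 9.96, 9.50 and 9.48 at 6 h. The 24 h arrays read 9.09, 9.04 and 8.90, the 48 h arrays 8.74, 9.03 and 8.53, and the 72 h arrays 8.51, 8.92 and 8.28. From 24 h on every untreated array lay below every 0 h array, while at 6 h the groups overlapped. The log2 fold change was −0.53 at 6 h (SE 0.182, q = 0.0687, and q = 0.0185 with the replicate block), with the same SE at each later time. Without the arrays of number 1 the 6 h value was −0.55. By 24 h *Lhx2* fell by 1.17 (q = 8.95e-05), by 48 h it fell by 1.41 (q = 9.78e-06) and by 72 h it fell by 1.61 (q = 1.08e-06). These 3 calls held under all 17 alternatives tried, with values between −1.79 and −1.45 at 72 h. Dividing-cell markers fell over the same time, from the 0 h range above to array means of 7.10 to 8.60 at 72 h. The 0 h array with the lowest dividing-cell markers had the highest *Lhx2* signal of its group. That array is number 1, described above, and a link between *Lhx2* and cell division was not tested.

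*Lmo1* and *Lmo3*, whose products compete with LIM homeobox factors for the shared cofactor Ldb1, fell too. *Lmo1* fell by 1.76 at 72 h (q = 0.000374) and *Lmo3* by 2.03 (q = 0.000119). Of the 9 genes in a list of LIM cofactors, 1 was higher and 2 lower at 72 h, beside 12.6% higher and 10.2% lower of all probe sets. *Ldb1* itself had values of −0.07, −0.05, −0.01 and −0.01 at the 4 times and passed at none.

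*Otx2* encodes a homeobox factor that specifies forebrain and midbrain and is later found in the choroid plexus. It read 8.29, 8.26 and 8.52 at 0 h. The 6 h arrays read 8.66, 9.17 and 8.98 and the 24 h arrays ran from 8.83 to 9.02. The 48 h arrays read 9.03, 9.18 and 8.96, and the 72 h arrays 9.32, 9.24 and 9.06. No untreated array of a later time reached down to the 0 h values. The rise of *Otx2* was 0.58 by 6 h (q = 0.00777), 0.59 by 24 h (q = 0.00285), 0.70 by 48 h (q = 0.000717) and 0.85 by 72 h (q = 5.97e-05), each with an SE of 0.134. The 48 and 72 h calls held under all 17 alternatives, the 24 h call was lost only with array weights (q = 0.0609), and the 6 h call under 3 alternatives. Its paralog *Otx1*, a factor of the cortex and sensory organs, read 8.97, 9.01 and 9.12 at 0 h and 9.37, 9.36 and 9.45 at 6 h. The rise of *Otx1* by 6 h was 0.36 (SE 0.085, q = 0.00889), and its values at 24, 48 and 72 h were 0.21, 0.10 and 0.13, none of which passed without the replicate block. With the block the 24 h value passed (q = 0.0273). Its 6 h call was lost without the arrays of number 1 (q = 0.0864).

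*Irx3* and *Irx5* lie in the same Iroquois cluster and pattern the diencephalon, hindbrain and spinal cord. *Irx3* read 9.02, 8.88 and 8.93 at 0 h, then 8.74, 8.33 and 8.57 (6 h), 8.50, 8.28 and 8.41 (24 h), 8.47, 8.38 and 8.27 (48 h), and finally 8.50, 8.38 and 8.21 (72 h). *Irx5* read 8.42, 8.70 and 8.63 at 0 h, then 8.39, 8.33 and 8.41 (6 h), 8.21, 7.98 and 8.02 (24 h), 8.03, 8.05 and 8.03 (48 h), and finally 8.04, 7.82 and 7.84 (72 h). For both genes all later untreated arrays lay below all 0 h arrays. The log2 change of *Irx3* was −0.39 by 6 h (q = 0.0173), −0.55 by 24 h (q = 0.000666), −0.57 by 48 h (q = 0.000459) and −0.58 by 72 h (q = 0.000209), each with an SE of 0.104. That of *Irx5* was −0.21 by 6 h (q = 0.203), which did not pass, then −0.52 by 24 h (q = 0.000656), −0.55 by 48 h (q = 0.000366) and −0.69 by 72 h (q = 1.89e-05), each with an SE of 0.098. The 72 h calls of both genes held under all 17 alternatives. The 6 h call of *Irx3* was lost under 6 of 17, among them without the arrays of number 1 (q = 0.0727). *Irx3os*, transcribed from the region next to *Irx3*, fell by 0.30 at 72 h (SE 0.105, q = 0.0254) and *Irx2*, of another Iroquois cluster, by 0.31 (SE 0.121, q = 0.0399). Both of these calls were lost without array 1 of the 0 h group and without all arrays of number 1 (q = 0.156 and 0.341).

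*Dlx2* and *Dlx1*, neighbours on chromosome 2, drive the GABAergic neuron programme of the ventral forebrain. *Dlx2* read 8.08, 7.75 and 7.85 at 0 h, 8.43, 8.40 and 8.49 at 6 h, 8.01, 7.76 and 7.83 at 24 h, 7.76, 7.82 and 7.77 at 48 h. The 72 h arrays read 7.60, 7.60 and 7.51. The 6 h arrays lay above and the 72 h arrays below all arrays of 0 h. *Dlx2* rose by 0.55 at 6 h (SE 0.095, q = 0.000645), was at −0.02 at 24 h and −0.11 at 48 h, and fell by 0.32 at 72 h (q = 0.0104). The 6 h call was lost only in a fit to the 6 arrays compared (q = 0.172), whereas the 72 h call was lost under 4 alternatives, in that kind of fit (q = 0.128), without array 1 of the 0 h group (q = 0.0642), and without all arrays of number 1 with the replicate block (q = 0.0618) or without it (q = 0.0959). *Dlx1* did not share the rise, with −0.02 at 6 h, and its change was −0.29 by 24 h (SE 0.093, q = 0.0226) and −0.27 by 72 h (q = 0.0237). *Dlx3*, better known from skin and bone, fell by 0.39 at 24 h (SE 0.137, q = 0.0365). The 24 and 72 h calls of *Dlx1* were lost without array 1 of the 0 h group and without all arrays of number 1 (q = 0.0656 and 0.185). The 24 h call of *Dlx3* was lost without that 0 h array (q = 0.159) but held without all arrays of number 1 (−0.32, q = 0.0398). Of the GABAergic markers *Gad1*, *Gad2* and *Slc32a1*, none was higher than at 0 h at any time and 1 was lower at 24, 48 and 72 h.

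*Emx2*, a factor of the caudal and medial cortex, read 7.98, 8.46 and 8.51 at 0 h, then 7.99, 8.01 and 8.09 (6 h), 7.86, 7.96 and 7.89 (24 h), 7.93, 8.08 and 8.05 (48 h), and finally 8.16, 8.15 and 8.09 (72 h). Array 1 at 0 h lay among the later arrays and the other two above all of them. *Emx2* fell by 0.42 at 24 h (SE 0.121, q = 0.0142) and had values of −0.29, −0.30 and −0.18 at 6, 48 and 72 h that did not pass, though with the replicate block those at 6 h (q = 0.0488) and 48 h (q = 0.0238) did. Without the arrays of number 1 it fell at all 4 times, by 0.44, 0.56, 0.42 and 0.37 (q = 0.0355, 0.00387, 0.0117 and 0.0179). *Six5*, a factor active in eye and muscle, changed by −0.52 by 6 h (SE 0.130, q = 0.0137) and by −0.47 by 24 h (q = 0.0106), and neither call held without the arrays of number 1 (q = 0.233 and 0.0998). *Six2*, a factor of kidney progenitors, fell by 0.36 at 72 h (SE 0.136, q = 0.0359), but not without array 1 of the 0 h group or without all arrays of number 1 (q = 0.142). *Pax6* rose by 0.38 at 24 h (SE 0.138, q = 0.042), a call lost under 10 of 17 alternatives, and its values at the other times were 0.32, 0.35 and 0.30.

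**Figure D3:**
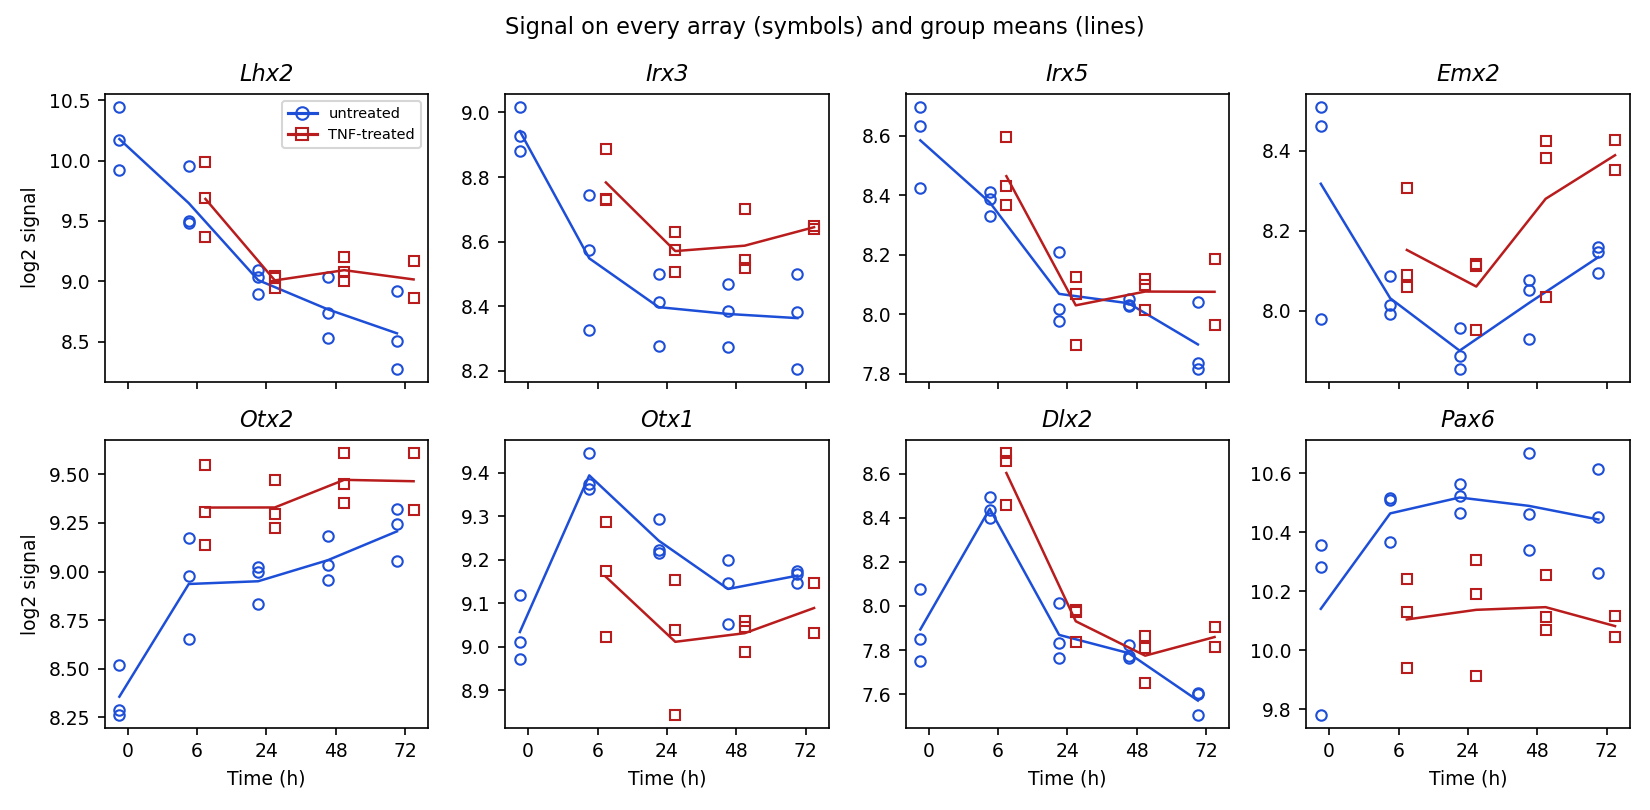
Log2 signal (vertical axes, scaled per panel) at 0, 6, 24, 48 and 72 h for 8 genes, with 1 symbol per array, circles for untreated and squares for TNF-treated NSPs, and lines through the group means. *Lhx2*, *Irx3* and *Irx5* decline from 0 h in untreated NSPs, *Otx2* climbs, *Dlx2* peaks at 6 h, and all TNF-treated *Pax6* squares lie below the untreated circles of the same time.

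*Hox* genes had slightly negative values against 0 h, as did the other members. The median change of the 38 *Hox* genes was −0.09, −0.18, −0.14 and −0.17 in the order of the times, while that of all probe sets was −0.02, −0.05, −0.04 and −0.05 and that of the 54 other members −0.07, −0.22, −0.14 and −0.22. At 72 h 4 of the 38 were lower, *Hoxb2* by 0.28 (SE 0.091, q = 0.0186), *Hoxb6* by 0.38 (SE 0.130, q = 0.0222), *Hoxc8* by 0.38 (SE 0.157, q = 0.0493) and *Hoxd12* by 0.43 (SE 0.151, q = 0.0268). All of these are at or below the background limit. *Hoxd12*, for example, read 7.03, 6.61 and 6.46 at 0 h and 6.21, 6.34 and 6.25 at 72 h. *Lhx9*, also below the limit, was lower by 0.38 (SE 0.151, q = 0.0436). Without the arrays of number 1, none of these 5 genes passed at 72 h, except *Hoxb6* when the replicate number was also a block. The same 0 h array was the highest of its group for each of the 5 and for the olfactory receptor probe sets, and its part in these values was not tested beyond leaving it out. *Hox* genes above the limit, among them *Hoxa4* and *Hoxb1*, passed in none of the 8 comparisons without the replicate block. With it, *Hoxb9* was lower at 72 h (q = 0.0329). At 24 h, where not every same-numbered pair correlated at over 0.1, the block gave *Hoxa4*, *Hoxb3* and *Hoxb9* lower (q from 0.0157 to 0.0380).

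**Figure D4:**
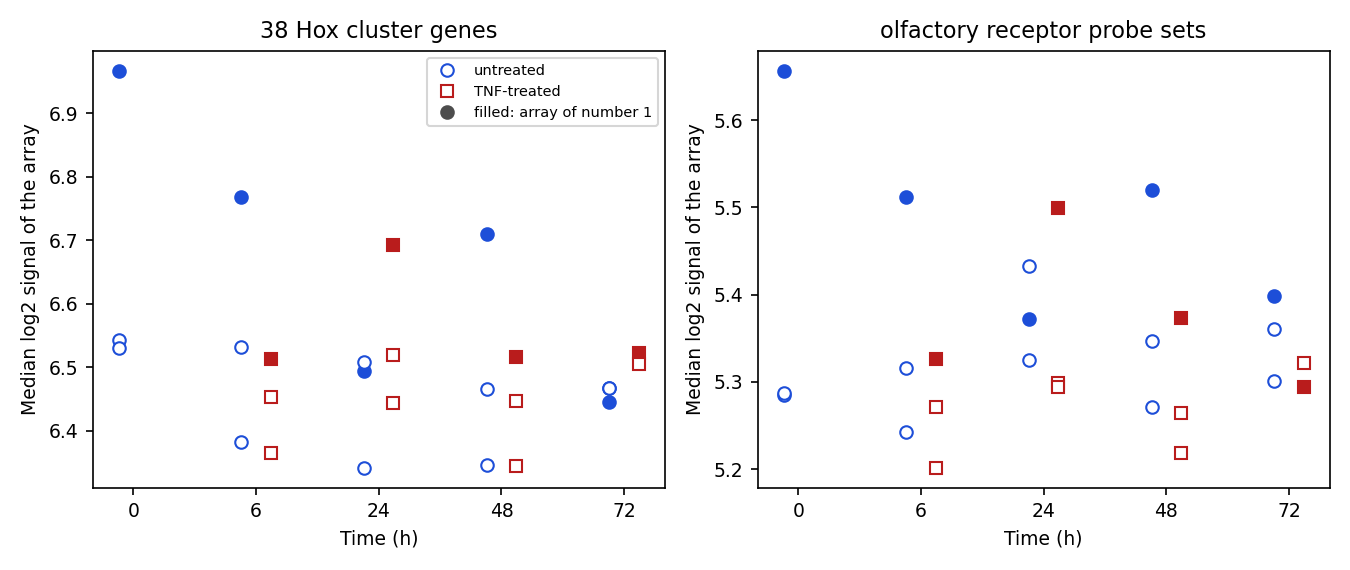
Median log2 signal of each array (vertical axes) over the 38 *Hox* genes (left) and over 1035 olfactory receptor probe sets (right) against time, with circles for untreated and squares for TNF-treated NSPs and filled symbols for arrays of number 1. Array 1 of 0 h lies highest in both panels, at 6.97 and 5.66.

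TNF was compared with no treatment at each time. Without a replicate block or array weights, no member passed the test at 6, 24, 48 or 72 h, where 0.326%, 0.863%, 1.04% and 1.15% of all probe sets did. Before adjustment, with p under 0.05 in limma, the members that passed were 6, 3, 6 and 5 in the order of the times, beside 4.97%, 5.62%, 6.51% and 9.57% of all probe sets. They were *Hoxa2*, *Otx1*, *Otx2*, *Irx3*, *Pax4* and *Pax6* at 6 h, *Otx1*, *Otx2* and *Pax6* at 24 h, *Emx2*, *Otx2*, *Pax4*, *Pax6*, *Six4* and *Six5* at 48 h, and *Dlx2*, *Lhx2*, *Irx3*, *Pax6* and *Six5* at 72 h. The members' values ran from −0.36 to 0.39 at 6 h, from −0.38 to 0.38 at 24 h, from −0.34 to 0.41 at 48 h and from −0.36 to 0.45 at 72 h. The 95% intervals reached from −0.65 to 0.67 at 6 h, −0.67 to 0.72 at 24 h, −0.65 to 0.70 at 48 h and −0.68 to 0.87 at 72 h. These bounds are the outermost limits over the members and belong to different genes, among them *Pax6* and *Otx2* at 6 h. No member's TNF effect differed between the 4 times in limma's F test, which 0.0984% of all probe sets passed, and 1 member had an unadjusted p under 0.05. With array weights, 2 members passed at 6 h (2.17%, beside 2.82% of all probe sets), 1 at 24 h (1.09%, beside 3.54%) and 8 at 72 h (8.7%, beside 14.4%).

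At all 4 times 7 members had TNF values above 0 and 13 below 0. No share over all probe sets is given for these counts, so they are not read as a result about the members. The median TNF value of all probe sets was −0.04, 0.01, −0.02 and −0.02 in the order of the times. The mean of the 4 TNF effects was also tested, a contrast chosen after the values were seen. It sets 11 TNF-treated against 12 untreated arrays. Here 8 members passed, 5 higher and 3 lower (8.7% of the 92, with 7.4% of all probe sets, 3.67% higher and 3.73% lower). Over genes above background, the same 8 make 15.7% of 51, beside 10.4% of all such probe sets. With the replicate block 10 members passed (10.9%, beside 14.3% of all probe sets) and with array weights 12 (13%, beside 21.2%). Without the arrays of number 1 it was 4 (4.35%, beside 3.23%), and with the block added 4 again (4.35%, beside 5.25%). Members thus did not stand above the share of all probe sets in every fit. The values that follow are those of the fit without a block. *Otx2* was higher with TNF by 0.36 (SE 0.069, q = 0.00138), *Six5* by 0.27 (SE 0.067, q = 0.0119), *Irx3* by 0.23 (SE 0.053, q = 0.00781), *Six4* by 0.22 (SE 0.067, q = 0.0343) and *Emx2* by 0.20 (SE 0.062, q = 0.0425). *Pax6* was lower by 0.36 (SE 0.071, q = 0.00173), *Pax4* by 0.25 (SE 0.071, q = 0.0227) and *Otx1* by 0.16 (SE 0.044, q = 0.0203). The calls of *Otx2* and *Irx3* held under all 34 alternatives, whereas that of *Emx2* was lost under 19 and that of *Six4* under 16, among them Benjamini-Hochberg adjustment and most single arrays left out. Those of *Otx1* and *Pax4* were lost under 3 each and those of *Pax6* and *Six5* under 2. Without the arrays of number 1 the calls of *Pax6* (q = 0.1), *Six5* (q = 0.11), *Six4* (q = 0.134) and *Otx1* (q = 0.103) were lost, and those of *Otx2*, *Irx3*, *Emx2* and *Pax4* passed.

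**Figure D5:**
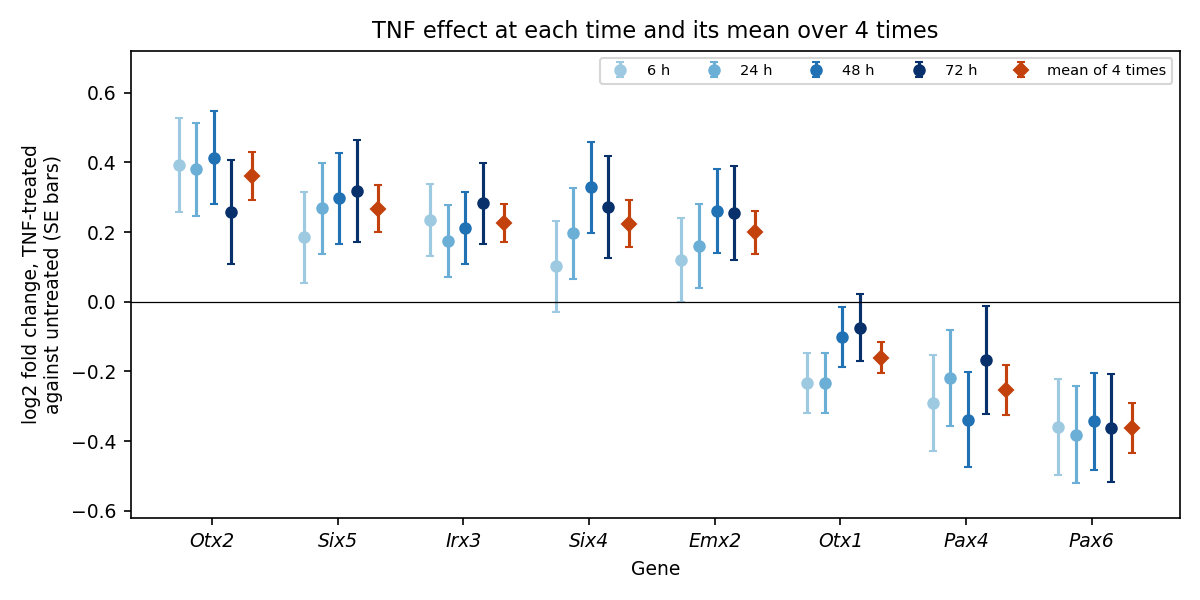
Log2 fold change of TNF-treated against untreated NSPs (vertical axis, bars are SE) for the 8 genes that passed in the mean over 4 times, with circles for 6, 24, 48 and 72 h and a diamond for the mean. Every circle of *Otx2*, *Six5*, *Irx3*, *Six4* and *Emx2* lies above 0 and every circle of *Otx1*, *Pax4* and *Pax6* below it. No single circle passed the test in the fit shown, without a replicate block or array weights.

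*Pax6*, a paired box and homeobox factor of cortical radial glia and of the eye, had untreated signals of 10.52, 10.37 and 10.51 at 6 h and TNF-treated signals of 10.13, 9.94 and 10.24. At 24 h it read 10.47, 10.52 and 10.56 untreated and 9.91, 10.19 and 10.30 with TNF. At 48 h it read 10.46, 10.67 and 10.34 against 10.07, 10.25 and 10.11, and at 72 h 10.45, 10.61 and 10.26 against 10.12 and 10.05. At every time each TNF-treated array lay below each untreated array. The values were −0.36, −0.38, −0.34 and −0.36 in the order of the times, none passing on its own (q from 0.409 to 0.747). Astrocyte markers were lower with TNF as well, and 4 of 8 passed in the mean over the 4 times. Their array means at 72 h ran from 11.92 to 12.19 untreated and from 11.56 to 11.67 with TNF. Of the 6 progenitor markers *Pax6* alone passed in the mean over the 4 times. Of the 6, 3 had mean values below 0, *Prom1* among them (−0.26, q = 0.161), and 3 above 0.

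*Otx2* signals with TNF were 9.55, 9.31 and 9.14 at 6 h, 9.23, 9.47 and 9.29 at 24 h, 9.35, 9.61 and 9.45 at 48 h. The 72 h pair read 9.61 and 9.32. These lay above all untreated arrays of the same time at 24 and 48 h and overlapped with them at 6 and 72 h. The values were 0.39, 0.38, 0.41 and 0.26 (q = 0.587, 0.414, 0.241 and 0.661). Without the arrays of number 1 they were 0.14, 0.45, 0.46 and 0.17. *Otx2*, which climbed over the untreated course, was higher still with TNF, and *Irx3*, which fell over the course, was higher with TNF than without. *Irx3* read 8.89, 8.73 and 8.73 with TNF at 6 h, 8.63, 8.51 and 8.58 at 24 h, 8.54, 8.52 and 8.70 at 48 h. The 72 h pair read 8.65 and 8.64. Each TNF-treated array lay above each untreated array from 24 h on. *Otx1* was below all untreated arrays on every TNF-treated array at 6 and 24 h, with values of −0.23 at both times, and its values at 48 and 72 h were −0.10 and −0.07. *Irx5* had values of 0.09, −0.04, 0.04 and 0.18 and did not pass (mean 0.07, q = 0.357). *Lhx2* had 0.03, 0.00, 0.32 and 0.45 (mean 0.20, q = 0.171), and at 72 h its TNF-treated arrays read 9.17 and 8.86 against 8.51, 8.92 and 8.28. *Pax4*, a factor of pancreatic islets, lay near the background limit, with untreated signals of 7.52, 7.15 and 7.17 and TNF-treated signals of 7.08, 6.90 and 6.84 at 48 h.

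Partners of these factors and other regional genes were listed apart from the members, and those named were chosen after their values were seen. None of 10 measured TALE cofactors (*Meis*, *Pbx*, *Pknox* and *Tgif* genes, whose products bind DNA beside Hox proteins), 9 LIM cofactors, 6 *Eya* and *Dach* genes, 16 other forebrain factors or 19 Polycomb and Trithorax genes passed for TNF at a single time. Among 16 factors of midbrain, hindbrain and spinal cord, 1 was higher at each time. It was *Egr2*, which marks rhombomeres and is also an immediate early gene, at 6 h (2.86, q = 5.56e-07), 24 h (1.85, q = 0.00012) and 48 h (1.03, q = 0.0325), and *Gbx2*, a factor of the midbrain-hindbrain border, at 72 h (0.67, q = 0.0431). *Egr2* at 72 h had 0.89 (q = 0.13). In the mean over the 4 times, *Tgif1* (0.24, q = 0.00182) and *Pknox2* (0.23, q = 0.0045) were higher, and *Eya1* (−0.40, q = 0.000796) and *Eya4* (−0.37, q = 0.00729), coactivators of the *Six4* and *Six5* family, were lower, while *Six4* and *Six5* were higher. *Phc2*, a Polycomb subunit, was higher by 0.21 (q = 0.00214).

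In the untreated course, at 72 h against 0 h, 2 of 10 TALE cofactors were higher and 3 lower. Of 6 *Eya* and *Dach* genes 0 were higher and 1 lower, and of 16 forebrain factors 1 was higher and 4 lower. Of 16 midbrain, hindbrain and spinal cord factors 1 was higher and 4 lower. Of 19 Polycomb and Trithorax genes 2 were higher and 6 lower. Among all probe sets 12.6% were higher and 10.2% lower. The lists are small, and these counts are not read as results about them. Fits without the arrays of number 1 are not given for these genes. *Pbx3* fell by 1.10 (q = 2.01e-06), while *Tgif1* rose by 0.28 (q = 0.0215). *Eya2* fell by 0.52 (q = 0.00416). *Zic2*, a dorsal forebrain factor, rose by 0.54 (q = 0.000571), and *Nr2e1*, a progenitor nuclear receptor, and *Gli3*, a Sonic hedgehog effector, fell by 0.57 (q = 0.000311) and 0.77 (q = 0.000149). *Egr2* fell by 2.19 (q = 6.6e-07) and *Dbx2*, a spinal cord patterning factor, by 1.02 (q = 0.00211). *Ezh2*, the Polycomb methyltransferase that holds silent *Hox* genes, fell by 0.72 (q = 0.00182) and *Phc2* by 0.47 (q = 0.00019), while *Cbx7* rose by 0.32 (q = 0.0304).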

How the data were processed

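Total RNA of 26 NSP samples in 9 groups was measured on Affymetrix mouse gene arrays. Per the study's methods and the submitters' processing notes, the authors normalised the scans by RMA with oligo in R 3.3.1, and the deposited values are log2 signals, used here as they stand. No scanner files, detection calls or probe intensities were used, so that the precision rests on the number of arrays and the spread between them. Of 35556 probe sets, 21789 have 1 gene symbol in the platform annotation, 1621 several and 12146 none, and no gene was named from several. Gene names and coordinates are from RefSeq (GRCm38.p6), where all 92 genes matched.

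Groups follow the sample labels. One limma 3.58.1 model (R 4.3.3) with a mean per group was fitted to all arrays and probe sets, with moderated tests and q-values (threshold 0.05) over all 35556 probe sets. SE are those of limma, and 95% intervals use its degrees of freedom. The code was tested on simulated data. Members and lists were chosen with earlier results of these data known. Named genes were members above background that passed in any comparison, the brightest gene of each family, and the 3 genes of each companion list with the largest F. Others were named after their values were seen.

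Replicate numbers are shared between groups. Deviations of same-numbered arrays from their group means, over probe sets above background, correlated at 0.549 to 0.801 between TNF-treated and untreated NSPs at 6 h and at 0.192 to 0.644 at 24 h. The range was 0.0431 to 0.750 at 48 h and 0.00242 to 0.157 at 72 h. Against 0 h, untreated arrays correlated at 0.592 to 0.690 at 6 h, 0.0684 to 0.366 at 24 h, 0.320 to 0.516 at 48 h and 0.168 to 0.234 at 72 h. Numbers were taken as pairs where every value was over 0.1. Alternatives were other adjustments, normalisation, filters, array weights, the replicate block, a fit to the arrays compared and each array left out. The mean TNF effect and leaving out number 1 were added after the data were seen.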

Additional observations from a re-analysis of the deposited data

How the results depend on the processing

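For the genes named by the rule, no value that passed in the fit without a block changed direction under an alternative. Values that passed only under an alternative were compared for TNF under all alternatives. Against 0 h they were compared only for the replicate block, array weights and leaving out number 1. None of these changed direction. Values that passed in neither did: without arrays of number 1, 27 of the 92 changed sign at 72 h against 0 h, *Hoxb1* from −0.20 to 0.04 among them, and 15 for TNF at 24 h, *Irx5* from −0.04 to 0.01 among them, and with array weights *Six5* for TNF at 6 h went to −0.03. For TNF at single times, array weights gave 1 member higher (*Otx2*) and 1 lower (*Otx1*) at 6 h, 1 higher at 24 h, and 6 higher and 2 lower at 72 h, and the replicate block gave 1 lower at 48 h (*Pax4*, q = 0.0483). All other alternatives gave 0, as did leaving out each array. With the replicate block the untreated members lower than at 0 h numbered 6 (6 h), 34 (24 h), 15 (48 h) and 34 (72 h), while 26 passed over the course. The 24 h count is 37% of the 92, beside 14.8% of all probe sets, and the shares at the other times and over the course are given above. With array weights, 0 were lower at 6 h, 0 higher and 5 lower at 24 h, 4 lower at 72 h, and 5 lower in the mean TNF effect. The lower members at 24 h, at 72 h and in the mean were 5.43%, 4.35% and 5.43% of the 92. The shares of all probe sets were 3.68%, 7.34% and 10.7%. A fit to only the arrays compared, which has fewer samples, gave 0 higher and 0 lower at 6 h, 1 and 2 at 24 h, 1 lower at 48 h and 3 lower at 72 h. Without arrays of number 1, 1 was lower at 6 h, 1 higher and 5 lower at 24 h, 4 lower at 72 h, and 3 higher and 1 lower in the mean TNF effect, and adding the replicate block gave 5 lower at 24, 48 and 72 h each and again 3 and 1. The 5 lower at 24 h without number 1 are 5.43% of the 92, beside 3.92% of all probe sets. With the block added, the 5 lower are 5.43% at each time, beside 7.55%, 9.06% and 10.7%. Benjamini-Hochberg adjustment gave 1 higher at 24 h, 7 lower at 72 h and 3 higher in the mean TNF effect. Cyclic loess gave 1 higher and 13 lower at 24 h and 6 lower at 48 h. Leaving out dim probe sets gave 15 lower at 24 h, 2 higher and 7 lower at 48 h and 2 higher at 72 h. Single-symbol probe sets gave 16 lower at 24 h and 2 higher and 5 lower at 48 h. For the adjustment, normalisation, filters and the fit to the arrays compared, no share over all probe sets is given. Their counts show how calls move and are not results about the members. The 99th percentile as the limit left 25 members above background.

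Leaving out 1 array at a time gave 2 to 3 members higher and 0 to 4 lower at 6 h, 1 to 3 higher and 4 to 29 lower at 24 h, 1 to 2 higher and 3 to 10 lower at 48 h, and 1 to 2 higher and 4 to 32 lower at 72 h. The highest counts from 24 h on came without 0 h array 3, and the 72 h count was 4 without 0 h array 1 or 72 h array 2. It gave 5 to 10 over the course, 3 to 5 higher and 1 to 4 lower in the mean TNF effect, 0 between times, and 50 to 52 above background. No share over all probe sets is given for these fits either, so their counts are not results about the members. Apart from what each alternative leaves out by construction, the cause was not tested. At 24 h against 0 h and with TNF at 48 and 72 h the arrays share only a number.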
